A study of Mus musculus with 24 samples.

Results

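Leukocytes reach the gut wall by rolling on, sticking to and crossing the venules that supply it, and the molecules of those steps were followed here as a set of 9 genes chosen by name. The leukocyte integrin chains were Itga4, Itgb7, Itgae, Itgal and Itgb2, the vascular molecules were Madcam1, Sele and Selp, and the gut-homing chemokine receptor was Ccr9. All 9 were among the 43280 gene symbols counted, and 7 of them, all but Sele and Ccr9, were among the 14773 genes with enough counts to be tested. RNA of mouse colon was sequenced in 24 samples, 4 in each of 6 groups, from a colitis model in which SCID mice (C.B-17/Icr-scid/scid, female, 7 weeks of age when bought), which lack mature T and B cells of their own, received CD4+ T cells of BALB/c mice that had been activated for 3 days. Vehicle mice received 0.5% methylcellulose. MEKi 0.3 and MEKi 1 mice received an enteric microparticle form of a MEK inhibitor by mouth at 0.3 or 1 mg/kg daily, starting on day 17 after transfer and ending on day 27. Anti-TNF and Isotype mice were injected intraperitoneally with anti-TNFa antibody or an isotype antibody at 0.1 mg per mouse every 4 days from day 17. The distal colon of these 5 groups was taken on day 28. Normal mice were SCID mice that received no treatment, and the labels do not give the day on which their colon was taken. Vehicle and Isotype were each set against Normal, MEKi 0.3 and MEKi 1 against Vehicle, and anti-TNF against Isotype.

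Library totals were 3052940 to 10587555 counts, with 3052940 to 5840995 in the Vehicle, MEKi 0.3, MEKi 1 and Normal libraries and 6139216 to 10587555 in the anti-TNF and Isotype libraries. Groups were taken from the sample to which each file belongs. A series-wide table repeats these counts, yet 16 of its 24 columns are named for a different group. The 4 CD3 genes, which encode the T cell receptor's signalling chains, had 0 to 2 summed counts in Normal by the samples' own files and 0 to 165 by the table's names. Markers of colon epithelium were read in every group, none of the 13 at 0. Libraries Vehicle replicate 4 and Isotype replicate 1 held 6606 and 4786 CPM of pancreas transcripts, against 13.34 to 467.5 CPM in the others, where CPM is the usual depth-scaled count on library totals adjusted by edgeR's TMM factors. The labels do not say that the 4 samples of a group came from separate mice, so p-values measure the spread between these samples.

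In a venule, selectins on the endothelium slow the passing cell, a chemokine signal switches its integrins into their binding form, and the integrins then hold it on immunoglobulin-like ligands of the vessel wall. The gut has its own version of this code. Integrin α4β7, made of the chains of Itga4 and Itgb7, binds the mucosal addressin MAdCAM-1, the product of Madcam1, on gut venules. The β7 chain also pairs with the αE chain of Itgae, or CD103, which binds E-cadherin on epithelial cells and marks lymphocytes and dendritic cells within the mucosa. Itgal and Itgb2 encode the chains of LFA-1, which is on most leukocytes and binds ICAM-1. The selectins of Sele and Selp are shown by inflamed endothelium, and Selp is also made in platelets. CCR9, the receptor for CCL25, is known for guiding T cells to the small intestine.

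The vascular members are given with the 250 bases before their RefSeq start (GRCm38.p6), since these are the members known from endothelium, and Madcam1 and Sele are textbook targets of the TNF-activated factor NF-κB. A promoter was listed for 6 of the 9 members. Capitals mark matches to the letters GGGAA, then any 3 bases, then CC, one written form of an NF-κB motif, searched on both strands and chosen after these sequences were seen.
Madcam1, chr10:79664309-79664558, plus strand: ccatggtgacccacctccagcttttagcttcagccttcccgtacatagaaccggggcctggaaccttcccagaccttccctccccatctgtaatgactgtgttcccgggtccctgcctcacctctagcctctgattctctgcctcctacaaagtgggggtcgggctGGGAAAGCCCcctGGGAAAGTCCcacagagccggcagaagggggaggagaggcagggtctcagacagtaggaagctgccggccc
Sele, chr1:164047984-164048233, plus strand: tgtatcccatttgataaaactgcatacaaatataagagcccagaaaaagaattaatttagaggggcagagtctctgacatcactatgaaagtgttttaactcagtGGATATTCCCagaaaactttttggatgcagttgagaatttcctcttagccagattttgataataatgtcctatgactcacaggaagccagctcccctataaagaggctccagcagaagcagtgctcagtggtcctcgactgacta
Selp, chr1:164115014-164115263, plus strand: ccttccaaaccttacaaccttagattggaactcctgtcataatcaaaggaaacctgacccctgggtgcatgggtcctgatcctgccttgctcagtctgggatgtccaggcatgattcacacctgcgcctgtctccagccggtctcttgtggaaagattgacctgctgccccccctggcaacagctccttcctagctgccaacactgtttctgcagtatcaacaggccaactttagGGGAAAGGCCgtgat

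The Madcam1 stretch held 2 matches, at 84 to 75 and 71 to 62 bases before the start. Sele held 1, read on the minus strand, at 145 to 136 bases, and Selp held 1 at 15 to 6 bases. No match was in the windows of Itga4, Itgb7 and Ccr9. Of the 32851 promoters listed, 4.94% had at least 1 match and 0.231% had at least 2. These letters describe the sequence and do not show that a factor was bound.

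The genes lie apart in the genome except for the selectins, which sit beside each other on chromosome 1 (GENCODE M21 on mm10: Sele at 164048234 to 164057677 and Selp at 164115264 to 164150026, both on the plus strand). Madcam1 (79664559 to 79668537) and Itgb2 (77530252 to 77565708) are both on chromosome 10. Itga4 is on chromosome 2 (79255426 to 79333123), Itgb7 on 15 (102215995 to 102231944), Itgae on 11 (73090583 to 73147446), Itgal on 7 (127296260 to 127335138) and Ccr9 on 9 (123678439 to 123784330). Another gene, Haspin, lies inside Itgae on the opposite strand and shares no exon base with it, and its 2084 counts over all libraries compare with 3163 for Itgae. No source used here says how strand was handled in counting, so reads of such neighbours cannot be told apart with certainty.

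Per kilobase of annotated exon, Itgb2 was the most abundant member in Vehicle colon, at 41.6 CPM per kb, followed by Itgb7 at 19.1, Madcam1 at 13.8 and Itgal at 10.6 CPM per kb. Itgae stood at 5.68, Selp at 2.62 and Itga4 at 1.27 CPM per kb. Ccr9 and Sele were near the bottom of what could be read, at 0.139 and 0.125 CPM per kb.

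Every member that could be tested was higher in the colitis groups than in Normal. In Vehicle against Normal, 7 of the 7 tested members rose (edgeR quasi-likelihood test, adjusted p under 0.05), where 46.4% of all genes tested were called and 23.1% were called higher. Their median log2 fold change was 2.27, beside 0 over all genes tested. In Isotype against Normal the same 7 rose, with a median of 1.83 and a background of 41.2% called and 20.9% higher. Every library of the colitis group stood above every Normal library for 6 of the 7 in Vehicle and for 7 of the 7 in Isotype, where 21.9% and 19.2% of all genes did so. None of these calls was lost when any 1 library was left out, but 0 members passed in Vehicle against Normal when groups followed the names in the series-wide table. Selp in Isotype against Normal did not pass with limma-voom (log2 fold change 1.05).

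Among the tested members the LFA-1 chains showed the steepest rise. Itgal, the αL chain, was read at 79.3, 84.3, 43.6 and 70.5 CPM in Vehicle and 78.7, 68.5, 60.9 and 55.7 CPM in Isotype, against 5.62, 3.03, 4.8 and 3.92 CPM in Normal. Itgb2, the β2 chain, was read at 129, 137, 75.8 and 167 CPM in Vehicle and 131, 90.3, 93.3 and 75.8 CPM in Isotype, against 13.0, 9.08, 14.4 and 13.1 CPM in Normal. For both genes the lowest colitis library was several times above the highest Normal library, and replicate 3 was the lowest of the Vehicle group. Itgal was 15.6-fold higher in Vehicle than in Normal (log2 fold change 3.96 ± 0.39 SE, edgeR adjusted p = 1.83e-07) and Itgb2 10.1-fold higher (3.34 ± 0.38, adjusted p = 1.18e-06). In Isotype against Normal the log2 fold changes were 3.89 and 2.96.

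The β7 integrin chains rose by unequal amounts. Itgb7 was read at 65.1, 51.6, 37.6 and 57.1 CPM in Vehicle and 50.7, 40.4, 45.3 and 39.5 CPM in Isotype, against 5.41, 4.71, 7.39 and 10.5 CPM in Normal. Itga4 was read at 16.7, 18.2, 14.5 and 21.3 CPM in Vehicle and 16.5, 20.8, 16.3 and 18.9 CPM in Isotype, against 6.92, 10.1, 10.9 and 6.32 CPM in Normal. Itgae was read at 22.1, 31.3, 31.2 and 19.5 CPM in Vehicle and 24.5, 20.3, 26.9 and 28.6 CPM in Isotype, against 6.92, 3.03, 7.94 and 10.2 CPM in Normal. No colitis library overlapped Normal for any of these genes, but Itga4 came closest, with 14.5 CPM in its lowest Vehicle library against 10.9 CPM in its highest Normal library. In Vehicle against Normal the log2 fold change was 2.89 ± 0.26 for Itgb7 (edgeR adjusted p = 1.54e-08), 1.84 ± 0.24 for Itgae (adjusted p = 3.5e-06) and 1.05 ± 0.21 for Itga4 (adjusted p = 0.000317). Itga4, Itgb7 and Itgae were all read in untreated SCID colon, at 8.56 ± 2.27, 6.99 ± 2.58 and 7.03 ± 3.01 CPM in Normal (SD, n = 4), where the 4 CD3 genes summed to 0.201 ± 0.234 CPM.

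The vessel-side members also rose. Madcam1, a ligand of α4β7, was read at 20.2, 23.4, 14.5 and 21.3 CPM in Vehicle. It stood at 16.6, 12.7, 12.3 and 10.2 CPM in Isotype, against 4.54, 4.37, 4.43 and 3.05 CPM in Normal. Its groups did not overlap, and the log2 fold change was 2.27 ± 0.27 in Vehicle against Normal (edgeR adjusted p = 8.19e-07) and 1.66 in Isotype against Normal (adjusted p = 4.7e-05). Selp was read at 18.4, 8.73, 2.49 and 16.6 CPM in Vehicle and 20.8, 7.66, 12.1 and 4.05 CPM in Isotype, against 3.89, 1.68, 3.14 and 3.49 CPM in Normal. The Selp libraries of both colitis groups were far apart from each other, and Vehicle replicate 3 lay inside the Normal range. The log2 fold change of Selp was 1.89 ± 0.52 in Vehicle against Normal (edgeR adjusted p = 0.00507) and 1.83 in Isotype against Normal (adjusted p = 0.00688). Selp reached the filter's level of 2.05 CPM in 3 of 4 Normal libraries, and the other tested members did so in all 4.

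Sele and Ccr9 had too few counts to pass the filter and are given as counts. Sele had 2, 1, 1 and 3 counts in Vehicle and 12, 8, 3 and 0 counts in Isotype, against 0 in every Normal library. For the count of 0 in Normal a limit of 3 counts over the group, or 0.17 CPM, was taken. Sele stood at 2.16 times this limit in Vehicle and 3.95 times in Isotype. These values leave out the counting error of the colitis counts, so they are not lower bounds. The 95% exact interval of Sele was 0.148 to 0.757 CPM in Vehicle and 0.427 to 1.01 CPM in Isotype, against 0 to 0.21 CPM in Normal. Ccr9 had 5, 7, 6 and 9 counts in Vehicle and 14, 11, 19 and 14 counts in Isotype, against 2, 0, 1 and 2 counts in Normal. The ratio of Ccr9 CPM was 4.99 for Vehicle to Normal (95% exact interval 1.89 to 16.6) and 5.97 for Isotype to Normal (2.42 to 19.1), where the intervals cover counting error only. In an edgeR fit without the filter, Ccr9 passed in Vehicle (adjusted p = 0.0152) and in Isotype (0.00352) and Sele in Isotype (0.0143), each against Normal. Sele in Vehicle against Normal did not pass in that edgeR fit (adjusted p = 0.0693). The region annotated as Ccr9 also holds Lztfl1 with 1985 counts on the opposite strand against 155 for Ccr9.

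Summed cell markers also differed between the groups, not all in the direction of the members. The summed level of 14 T cell markers was 216.3 to 289.5 CPM in Vehicle and 147.3 to 195.6 CPM in Isotype, against 14.06 to 17.54 CPM in Normal, where Cd3d, Cd3e, Cd5 and Trac were at 0. The 12 monocyte and macrophage markers summed to 3069 to 4657 CPM in Vehicle and 2084 to 2508 CPM in Isotype, against 744 to 860.1 CPM in Normal, and the 12 neutrophil markers to 1665 to 2709 CPM in Vehicle and 1821 to 2861 CPM in Isotype, against 361 to 554.2 CPM in Normal, where Cxcr2 and Ngp were at 0. The 14 blood endothelium markers summed to 273.2 to 415.5 CPM in Vehicle and 210.7 to 445.5 CPM in Isotype, against 290.5 to 331.1 CPM in Normal, and 1 of the 14 was called higher and 2 lower in Vehicle. That sum overlapped between Vehicle and Normal. The 6 high endothelial venule markers were lower without overlap, at 129.9 to 140.5 CPM in Vehicle against 169.1 to 204.2 CPM in Normal. In Isotype they summed to 97.02 to 199.6 CPM. The 6 lymphatic endothelium markers summed to 112.4 to 168.1 CPM in Vehicle against 133.5 to 192.5 CPM in Normal, with overlap. Markers of B and plasma cells, which a SCID host should lack, summed to 542.1 to 3082 CPM in Vehicle and 66.78 to 1263 CPM in Isotype, against 4.976 to 21.79 CPM in Normal, with Pax5 at 0 in Normal. The 8 platelet markers, of which Treml1 was at 0 in both groups, summed to 23.55 to 32.65 CPM in Vehicle against 11.99 to 29.27 CPM in Normal. The 6 smooth muscle markers, 6 of them called lower in Vehicle, summed to 1058 to 2624 CPM in Vehicle and 1015 to 2152 CPM in Isotype, against 5573 to 6724 CPM in Normal. The 13 colon epithelium markers, of which 2 were called higher and 6 lower in Vehicle, summed to 13360 to 19820 CPM in Vehicle and 11620 to 21580 CPM in Isotype, against 25830 to 27170 CPM in Normal. The part of these cell types in the members' results was not tested. In bulk tissue, fewer cells of a type and less RNA per cell cannot be told apart.

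**Figure D1:**
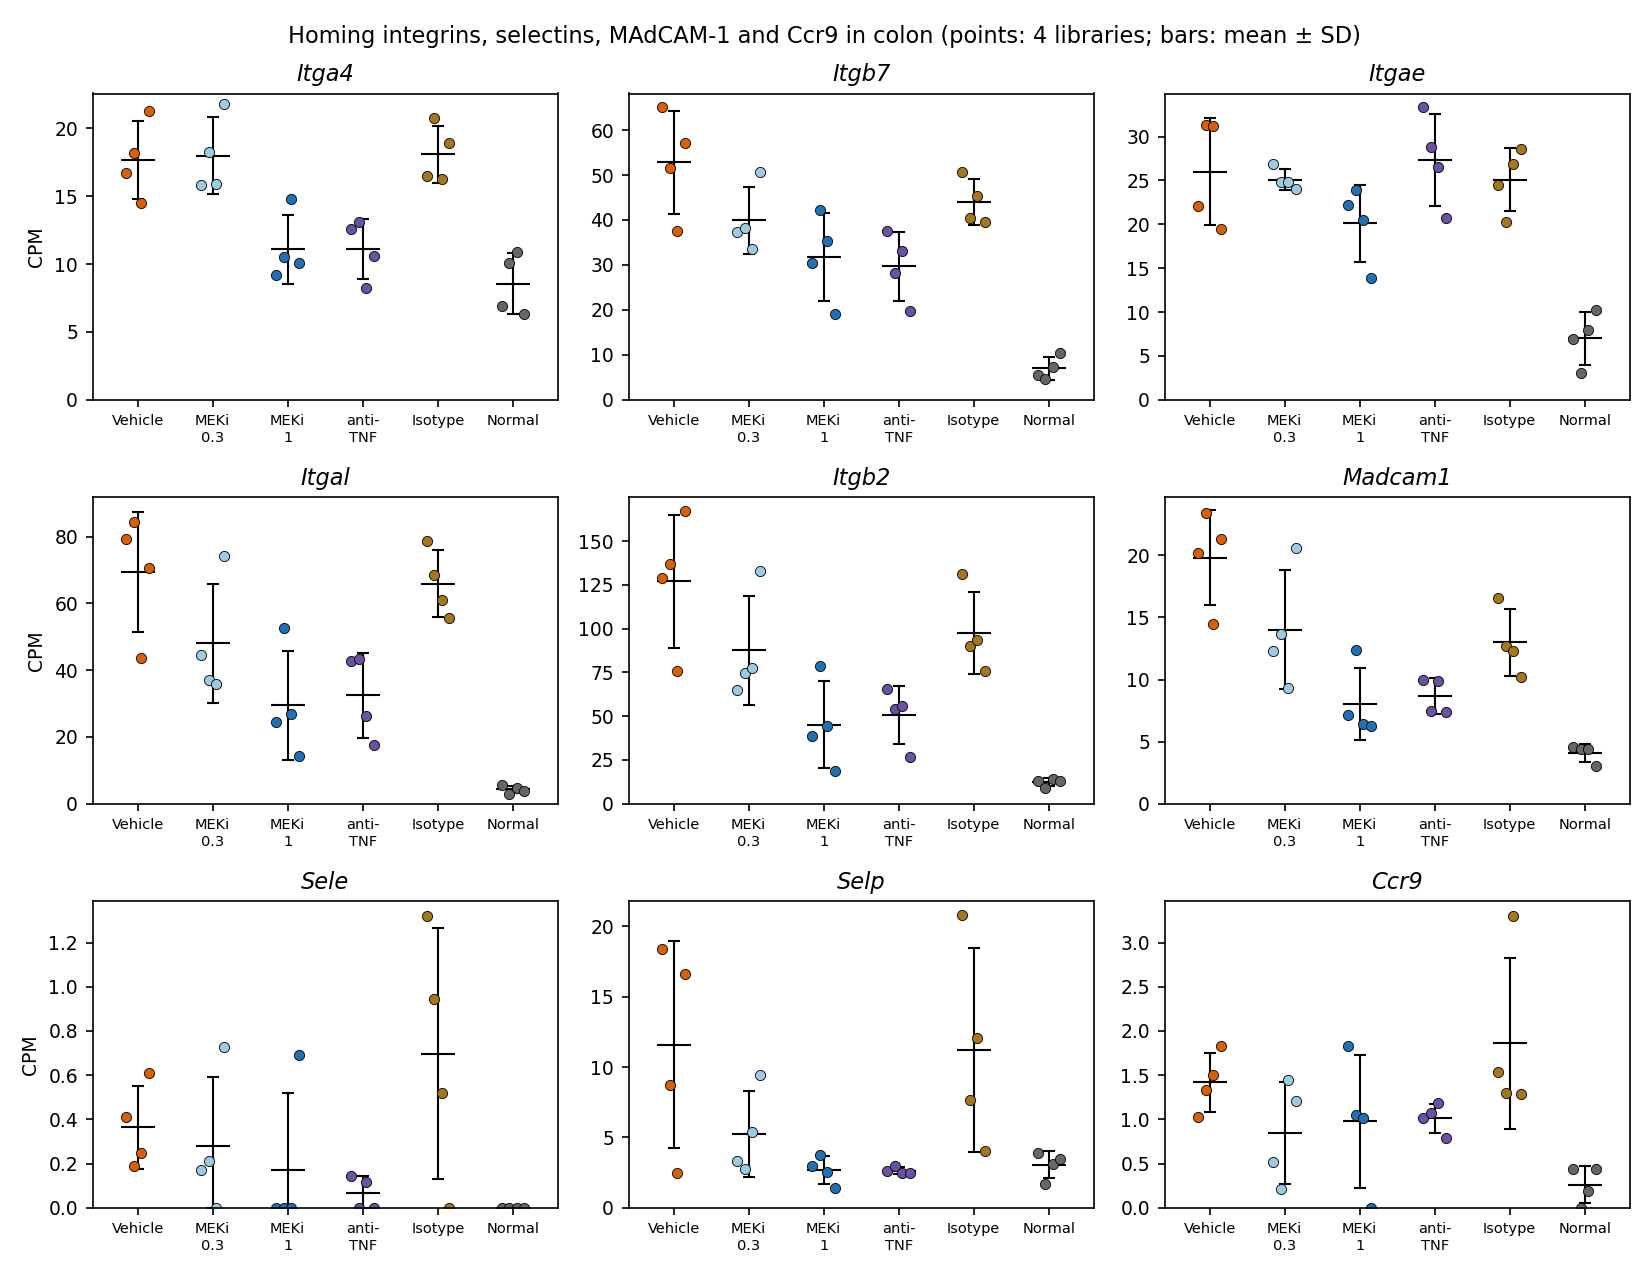
Level of each of the 9 members in every library, in CPM on TMM-scaled totals on a linear axis from 0, by group. Points are the 4 libraries of a group and bars are mean ± SD, stopped at 0; Itgal stood at 43.6 to 84.3 CPM in Vehicle against 3.03 to 5.62 CPM in Normal, while Selp spread from 2.49 to 18.4 CPM within Vehicle.

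Most members were lower at the higher dose of the MEK inhibitor than in Vehicle. In MEKi 1 against Vehicle, 6 of the 7 tested members fell (edgeR, adjusted p under 0.05), where 10.6% of all genes were called and 4.51% were called lower, and the members' median log2 fold change was -1.22 beside 0 over all genes. With totals not scaled by TMM, 714 genes were called lower and 639 higher, against 667 lower and 898 higher with TMM, while 6 members fell under both. Of the vessel-side members, Selp had the largest fall of the tested members and Madcam1 the clearest separation. Madcam1 was read at 7.11, 12.4, 6.39 and 6.24 CPM in MEKi 1, below every Vehicle library (14.5 to 23.4 CPM), and its log2 fold change was -1.29 ± 0.25 SE (adjusted p = 0.0108). Selp was read at 2.98, 3.77, 2.56 and 1.39 CPM in MEKi 1 against 2.49 to 18.4 CPM in Vehicle, with a log2 fold change of -2.07 ± 0.53 (adjusted p = 0.0225). The Selp groups overlapped only through Vehicle replicate 3. Madcam1 was the single tested member whose MEKi 1 and Vehicle libraries did not overlap, where 8.83% of all genes were lower without overlap.

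Among the integrin chains the LFA-1 pair fell further than the β7 pair. Itgb2 was read at 38.7, 78.7, 44.2 and 18.7 CPM in MEKi 1 and averaged 45.1 ± 24.9 CPM, against 127 ± 38.1 CPM in Vehicle (SD, n = 4). Its log2 fold change was -1.48 ± 0.34 (edgeR adjusted p = 0.0161), and MEKi 1 replicate 2 was the library that reached into the Vehicle range. Itgal was read at 24.5, 52.5, 26.9 and 14.2 CPM in MEKi 1 and averaged 29.5 ± 16.3 CPM, against 69.4 ± 18.1 CPM in Vehicle, a log2 fold change of -1.22 ± 0.33 (edgeR adjusted p = 0.0273). Itgb7 averaged 31.8 ± 9.76 CPM in MEKi 1 against 52.8 ± 11.5 CPM in Vehicle (-0.72 ± 0.23, edgeR adjusted p = 0.0451), and Itga4 11.1 ± 2.53 against 17.7 ± 2.88 CPM (-0.67 ± 0.20, adjusted p = 0.0393). Both overlapped at the edge of the Vehicle range. Itgae was the exception, at 20.1 ± 4.38 CPM in MEKi 1 against 26 ± 6.13 CPM in Vehicle, and its log2 fold change of -0.36 ± 0.22 did not pass (edgeR adjusted p = 0.28). The integrin chains were not tested against each other.

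These calls rested on few libraries. When 1 MEKi 1 library was left out, the 6 members called became 0 for replicate 1, 2 for replicate 3 and 3 for replicate 4. When 1 Vehicle library was left out, they became 2 for replicate 1, 3 for replicate 2 and 1 for replicate 4. Calls over all genes, 1565 with every library, were also fewer in these fits. They were 43, 220 and 1447 without MEKi 1 replicates 1, 3 and 4, and 324, 812 and 128 without Vehicle replicates 1, 2 and 4. Without the libraries rich in pancreas transcripts, 1 member, Madcam1, was called, and 391 genes in all. The direction of all 7 tested members was kept in every one of these fits. In MEKi 1 the T cell markers summed to 93.27 to 184.8 CPM and the monocyte and macrophage markers to 887.6 to 2622 CPM. The blood endothelium markers summed to 188.3 to 238.8 CPM. Every sum of these lists was below every Vehicle sum of the same list. The high endothelial venule markers summed to 156.2 to 172.4 CPM in MEKi 1, above every Vehicle library. Of the 12 neutrophil markers 7 were called lower (median log2 fold change -2.76), and they summed to 1341 to 2038 CPM in MEKi 1 against 1665 to 2709 CPM in Vehicle, with overlap. The 13 colon epithelium markers summed to 20240 to 25920 CPM in MEKi 1 against 13360 to 19820 CPM in Vehicle, without overlap, and 2 of them were called higher. Their part in the fall of the members was not tested.

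At the lower dose no member passed in the edgeR fit of all 24 libraries. In MEKi 0.3 against Vehicle, edgeR called 0 of the 7 tested members, 2 had an unadjusted p under 0.05, DESeq2 called 0 and limma-voom with sample weights called 5, in a fit that called 3357 of all 14773 genes. In all, 0.00677% of genes were called by edgeR, and 2639 had an unadjusted p under 0.05. With the replicate number as a block, which the pairing check allowed for this comparison, 1 gene was called over all 24 libraries. In a fit of only these groups, 405 genes were called with the block and 0 without it. None of these fits called a member. Selp averaged 5.22 ± 3.05 CPM in MEKi 0.3 against 11.6 ± 7.36 CPM in Vehicle (log2 fold change -1.17 ± 0.49, edgeR adjusted p = 0.23), and Madcam1 14 ± 4.78 against 19.8 ± 3.82 CPM (-0.51 ± 0.24, adjusted p = 0.263). Itgal averaged 48.0 ± 17.9 CPM in MEKi 0.3, with a log2 fold change of -0.54 ± 0.32 (edgeR adjusted p = 0.367), and Itgb2 87.6 ± 31.0 CPM, at -0.54 ± 0.33. MEKi 0.3 replicate 4 was the highest of its group for 6 of the 7, Itgae being the exception. Without that library edgeR called 1130 of all genes, against 1 with it, so the number of calls in this comparison depended on that library. The number of members called in that fit is not given here. The log2 fold change was -0.05 ± 0.22 for Itgae and 0.02 ± 0.20 for Itga4, which turned to -0.0042 with unscaled totals.

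Across Vehicle, 0.3 and 1 mg/kg, the mean Itgb2 level was 127, 87.6 and 45.1 CPM and the mean Madcam1 level 19.8, 14 and 8.02 CPM. Itga4 followed another course, at 17.7, 18.0 and 11.1 CPM. In MEKi 1 against MEKi 0.3, edgeR called 0 members and 0 genes, DESeq2 and limma-voom called 0 members, and 3 members and 641 genes had an unadjusted p under 0.05. Those members were Itga4 (log2 fold change -0.69), Itgb2 (-0.94) and Madcam1 (-0.77). Itga4 and Itgae were lower in every MEKi 1 library than in every MEKi 0.3 library, which held for 1.32% of all genes. By adjusted p, no member differed between the doses.

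Under anti-TNF the members other than Itgae were lower than under Isotype, without passing the adjusted test. In anti-TNF against Isotype edgeR called 0 of 7 tested members, with 0.0203% of all genes called. Unadjusted p was under 0.05 for 6 members and for 1653 genes. DESeq2 called 2 members, Itga4 and Selp, and 85 genes in all. limma-voom with sample weights also called 2 members, Itga4 and Itgal, and 35 genes in all. By the samples' own files, every anti-TNF library lay below every Isotype library in 6 of the 7 tested members. Of all genes 3.1% did so. The members' median log2 fold change was -0.70 beside 0 over all genes.

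Among the tested members Selp showed the widest gap, at 2.60, 2.97, 2.48 and 2.49 CPM in anti-TNF against 20.8, 7.66, 12.1 and 4.05 CPM in Isotype. The anti-TNF libraries lay within a narrow band inside the Normal range of 1.68 to 3.89 CPM, and the edgeR log2 fold change was -2.07 ± 0.49 SE (adjusted p = 0.164). It passed without Isotype replicate 4, at -2.35, in a fit that called 34 genes in all. Itgal was read at 42.7, 43.5, 26.2 and 17.6 CPM in anti-TNF against 55.7 to 78.7 CPM in Isotype (-1.02 ± 0.32, edgeR adjusted p = 0.253), and Itgb2 at 65.8, 54.0, 56.0 and 26.9 against 75.8 to 131 CPM (-0.94 ± 0.33, adjusted p = 0.294). Itga4 was read at 12.6, 13.1, 8.25 and 10.6 CPM in anti-TNF against 16.3 to 20.8 CPM in Isotype (-0.70 ± 0.19, edgeR adjusted p = 0.209). Anti-TNF replicate 4 was the lowest of its group for Itgal, Itgb2, Itgb7, Itgae and Madcam1. Itgb7 averaged 29.7 ± 7.65 CPM in anti-TNF against 44.0 ± 5.16 CPM in Isotype (-0.57 ± 0.22, edgeR adjusted p = 0.342), and Madcam1 8.68 ± 1.45 against 13.0 ± 2.68 CPM (-0.58 ± 0.24, adjusted p = 0.356). Itgae averaged 27.3 ± 5.24 CPM in anti-TNF against 25.1 ± 3.62 CPM in Isotype (0.12 ± 0.21, edgeR adjusted p = 0.866), and the groups overlapped.

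The low-count members pointed the same way. Sele had 1, 0, 1 and 0 counts in anti-TNF against 12, 8, 3 and 0 in Isotype, a ratio of CPM of 0.0945 (95% exact interval 0.0108 to 0.383). Isotype replicate 4, with 0, overlapped with anti-TNF. Ccr9 had 7, 9, 10 and 6 counts in anti-TNF against 14, 11, 19 and 14 in Isotype, a ratio of 0.6 (0.377 to 0.939). For MEKi 1 against Vehicle the Ccr9 ratio was 0.753 (0.385 to 1.43) and the Sele ratio 0.342 (0.0346 to 1.79), both with intervals that include 1. All these intervals cover counting error only and leave out the spread between samples. In the edgeR fit without the filter neither gene passed in anti-TNF against Isotype (adjusted p = 0.422 for Sele and 0.736 for Ccr9). Neither passed there in MEKi 1 against Vehicle (edgeR adjusted p = 0.592 for Sele and 0.75 for Ccr9).

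No gene of the T cell, monocyte and macrophage or blood endothelium marker lists was called by edgeR in this comparison. The CD3 genes summed to 22.8 ± 9.69 CPM in anti-TNF against 31.4 ± 2.18 CPM in Isotype, with overlap, and were lowest in anti-TNF replicate 4 at 9.84 CPM. The monocyte and macrophage markers summed to 997.7 to 1802 CPM in anti-TNF against 2084 to 2508 CPM in Isotype, without overlap. The blood endothelium markers summed to 213.6 to 270.4 CPM in anti-TNF against 210.7 to 445.5 CPM in Isotype and overlapped. Their part in the members' values was not tested. In the series-wide table, the columns that hold Isotype replicates 3 and 4 carry anti-TNF names. Those that hold anti-TNF replicates 1 and 2 carry Isotype names, and the counts cannot settle which naming is right. By the table's names every tested member overlapped between these groups. Selp was then at 2.48 to 12.1 CPM in anti-TNF against 2.60 to 20.8 CPM in Isotype, and edgeR called 0 genes. With the libraries on which both labellings agree, 2 per group, the log2 fold changes of anti-TNF against Isotype were -2.5 for Selp, -1.74 for Itgal, -1.41 for Itgb2, -0.97 for Itga4, -0.78 for Itgb7, -0.76 for Madcam1 and 0.09 for Itgae, and none passed.

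The change in MEKi 1 relative to Vehicle was set against that in anti-TNF relative to Isotype by a test of their difference. edgeR called 0 of 7 members and 0.0135% of genes, with 0 members and 729 genes at an unadjusted p under 0.05. DESeq2 called 0 members and 8 genes, and limma-voom with sample weights called 1 member, Madcam1, and 1407 genes. The log2 difference of effects was -0.71 ± 0.34 for Madcam1 (edgeR adjusted p = 0.934), -0.54 ± 0.47 for Itgb2, -0.48 ± 0.31 for Itgae, -0.20 ± 0.45 for Itgal, -0.16 ± 0.32 for Itgb7 and 0.04 ± 0.28 for Itga4. These errors are wide enough that the treatments cannot be said to act alike on the members. In Isotype against Vehicle DESeq2 called 0 members and 802 genes, and limma-voom 1 member and 2977 genes. edgeR called 0 members and 2.99% of genes there, with 1 member and 2576 genes at an unadjusted p under 0.05. That member was Madcam1, at 13.0 ± 2.68 CPM in Isotype against 19.8 ± 3.82 CPM in Vehicle (log2 fold change -0.62, edgeR adjusted p = 0.156).

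Treated colons were compared with Normal as well. In MEKi 0.3 against Normal, 6 members rose with 19.9% of genes called and 10.8% called higher, and Selp was the one that did not pass (log2 fold change 0.72, edgeR adjusted p = 0.364). In MEKi 1 against Normal, 5 members rose, with 12.8% of genes called and 8.06% called higher. The same 5 rose in anti-TNF against Normal, with 22.4% called and 12.5% called higher. In MEKi 1 against Normal and in anti-TNF against Normal, which share the Normal libraries, the log2 fold changes were 2.75 and 2.87 for Itgal, 2.17 and 2.06 for Itgb7, 1.86 and 2.01 for Itgb2, 1.48 and 1.92 for Itgae and 0.99 and 1.08 for Madcam1. Madcam1 in MEKi 1 no longer passed without MEKi 1 replicate 2 (0.70) or without Normal replicate 4 (0.86), nor with limma-voom (0.83) or a fit of only these groups (0.98). Itga4 was at 0.38 in both comparisons (edgeR adjusted p = 0.24 in MEKi 1 and 0.181 in anti-TNF) and Selp at -0.18 (0.865) and -0.24 (0.776), so neither gene could be told from Normal under either treatment.

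**Figure D2:**
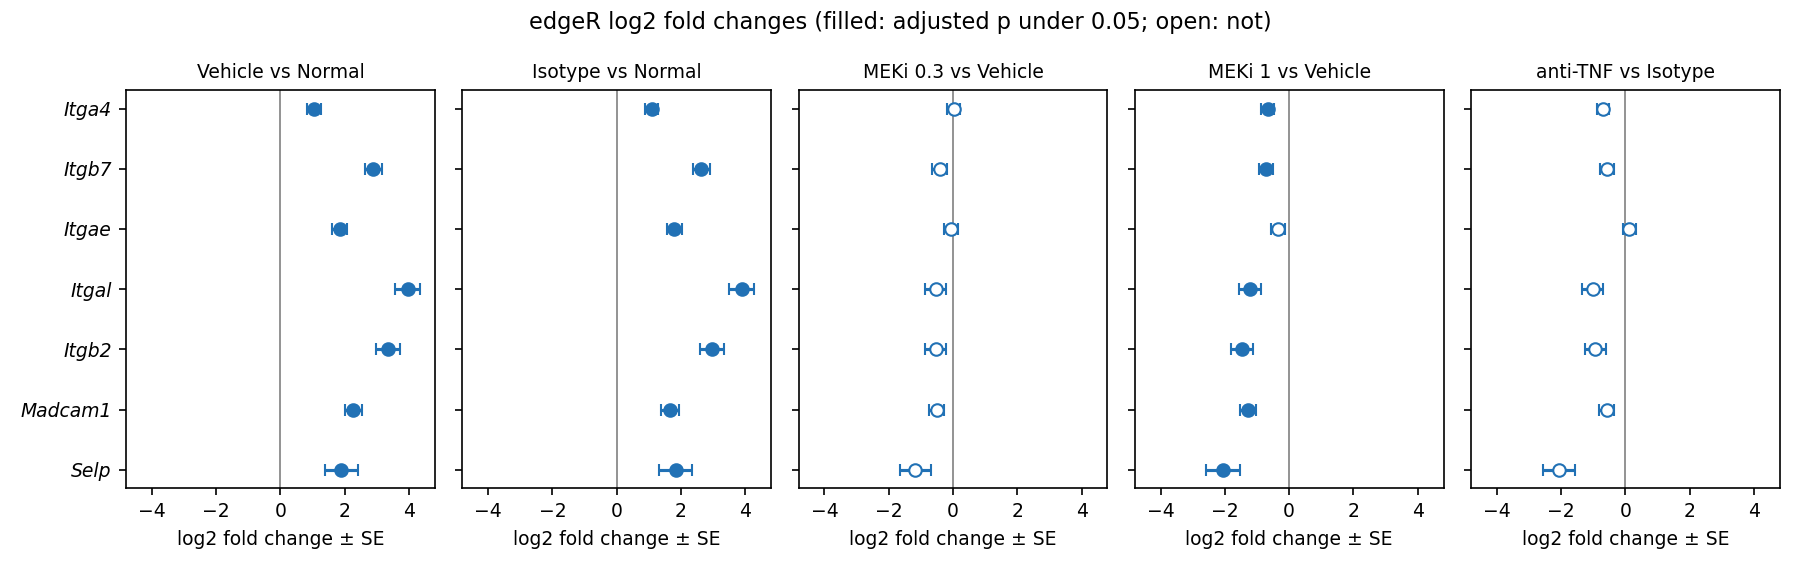
Log2 fold change of the 7 tested members in 5 comparisons, with bars of ± 1 SE from the edgeR fit and filled points where the adjusted p was under 0.05. All 7 points are filled and above 0 for Vehicle and Isotype against Normal, 6 are filled and below 0 for MEKi 1 against Vehicle, and none is filled for MEKi 0.3 against Vehicle or anti-TNF against Isotype.

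The order of group means differed among members. Normal was lowest and separate from the next group for Itgb7, Itgae, Itgal, Itgb2 and Madcam1. The share of all genes with that order is not given. Against Normal alone, 21.9% of all genes were higher without overlap in Vehicle and 19.2% in Isotype. The 5 colitis groups formed a run without a clear step between neighbours for these genes, except that every Isotype library was above every anti-TNF library for Madcam1. For Itgb7, Itgal and Itgb2 every Isotype library was also above every anti-TNF library, but these groups were not neighbours in the order. The mean of Itgae was highest in anti-TNF, and that of Selp was lowest there, below Normal.

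Since the CD3 genes also differed between groups, each member was divided by their summed level in the same library, as a description. Their sum averaged 47.9 ± 4.68 CPM in Vehicle, 31.6 ± 6.11 in MEKi 0.3, 22.9 ± 4.89 in MEKi 1, 22.8 ± 9.69 in anti-TNF and 31.4 ± 2.18 CPM in Isotype. Per CD3, Itga4 stood at 0.552, 0.604, 0.592 and 0.539 in MEKi 0.3 against 0.346, 0.368, 0.349 and 0.407 in Vehicle, with no overlap. Isotype, which received no MEK inhibitor, also lay above every Vehicle library, at 0.487 to 0.685. Itga4 itself averaged 18.0 ± 2.83 CPM in MEKi 0.3 against 17.7 ± 2.88 CPM in Vehicle. The ratio of means of Itga4 per CD3 was 1.56 for MEKi 0.3 to Vehicle, 1.34 for MEKi 1 to Vehicle and 1.03 for anti-TNF to Isotype. In anti-TNF the single values were 0.397, 0.621, 0.289 and 1.08 against 0.487, 0.685, 0.505 and 0.651 in Isotype. The highest of these, in anti-TNF replicate 4, came from the library with the lowest CD3 sum. Over the 14 T cell markers the ratio of means was 0.89 for anti-TNF to Isotype and 1.31 for MEKi 1 to Vehicle.

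Itgae per CD3 was 1.23, 0.851, 0.784 and 0.714 in MEKi 1 against 0.457, 0.632, 0.753 and 0.372 in Vehicle, and 1.05, 1.37, 0.930 and 2.11 in anti-TNF against 0.721, 0.669, 0.833 and 0.987 in Isotype. The ratios of means were 1.62 and 1.7, and in each comparison the lowest treated library overlapped with the highest control library. In anti-TNF the highest value came from replicate 4, which had the lowest CD3 sum. For Itgb7 the ratios of means were 1.26 for MEKi 1 to Vehicle and 1.02 for anti-TNF to Isotype. The LFA-1 chains ran the other way, at 0.869 and 0.73 for Itgal and 0.728 and 0.757 for Itgb2. Over the 14 T cell markers in place of CD3, every anti-TNF library was below every Isotype library for Itgal (ratio of means 0.664) and Itgb2 (0.704). Selp, a gene of endothelium and platelets, gave ratios of 0.501 for MEKi 1 to Vehicle and 0.408 for anti-TNF to Isotype. Itgb2, Itgal and Itgae are also expressed by myeloid cells. Itga4 and Itgb7 averaged 8.56 and 6.99 CPM in Normal, where the CD3 genes summed to 0.201 CPM. None of these ratios is therefore a level per T cell.

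**Figure D3:**
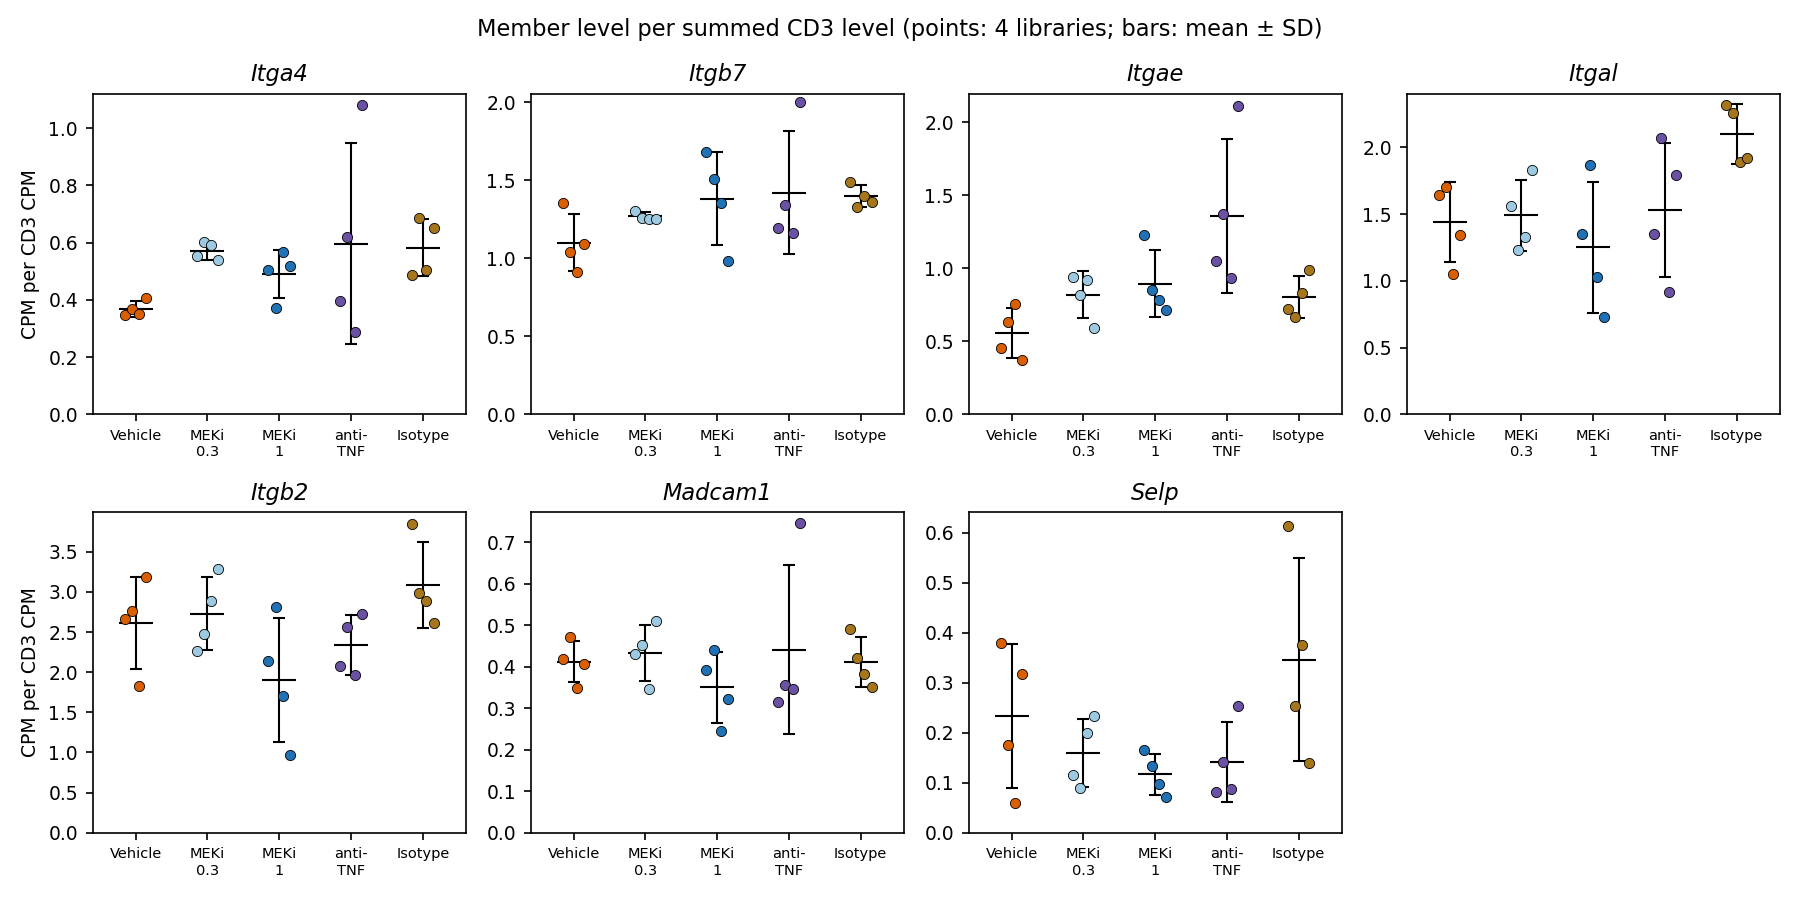
CPM of each of the 7 tested members divided by the summed CPM of the 4 CD3 genes in the same library, by group, without Normal, where that sum was 0 to 0.436 CPM. Points are libraries and bars are mean ± SD. For Itga4, MEKi 0.3 (0.539 to 0.604) and Isotype (0.487 to 0.685) both lie above Vehicle (0.346 to 0.407). The highest Itgae point is anti-TNF replicate 4 at 2.11.

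Integrin chains that pair were compared within libraries. Itgal per Itgb2 averaged 0.557 ± 0.0929 in Vehicle and 0.687 ± 0.0727 in Isotype against 0.35 ± 0.0577 in Normal, and stood at 0.667 ± 0.0665 in MEKi 1 and 0.644 ± 0.139 in anti-TNF. Both chains thus moved nearly together once colitis was present. Itga4 per Itgb7 averaged 0.342 ± 0.058 in Vehicle against 1.38 ± 0.633 in Normal (0.257 to 0.384 against 0.604 to 2.14), and the groups did not overlap. CPM is not corrected for length, so these ratios compare groups, not the chains.

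Itgae per Itgb7 was higher in anti-TNF than in Isotype. It stood at 0.888, 1.02, 0.801 and 1.05 in anti-TNF against 0.483, 0.501, 0.594 and 0.725 in Isotype, with no overlap, while MEKi 1 (0.564 to 0.729) lay within the Vehicle range (0.340 to 0.828). Itgal per Itgae was 1.28, 1.51, 0.987 and 0.848 in anti-TNF against 3.22, 3.38, 2.26 and 1.95 in Isotype, again with no overlap, and averaged 1.41 ± 0.541 in MEKi 1 against 2.82 ± 1.04 in Vehicle. By the names in the series-wide table, both ratios overlapped between anti-TNF and Isotype. These ratios were chosen with the levels known and are given without a test. The gene on the other strand of Itgae, listed as Gsg2 in the files, was at 7.35 to 20.4 CPM in anti-TNF against 17.3 to 23.9 CPM in Isotype. It averaged 20.2 ± 2.56 CPM in Vehicle against 7.75 ± 2.55 CPM in Normal, and every Vehicle and Isotype library stood above every Normal library. Its part in the Itgae counts was not tested.

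The β2 chain has other partners. Itgax, the αX chain of dendritic cells and macrophages, averaged 69.8 ± 13.9 CPM in Vehicle against 11.4 ± 2.86 CPM in Normal, and Itgam, the αM chain of neutrophils and monocytes, 29.1 ± 11.7 CPM in Vehicle. In MEKi 1, Itgax averaged 36.1 ± 20.9 CPM and Itgam 11.5 ± 4.89 CPM. Itgad, the αD chain, was at most 0.882 CPM in any library.

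**Figure D4:**
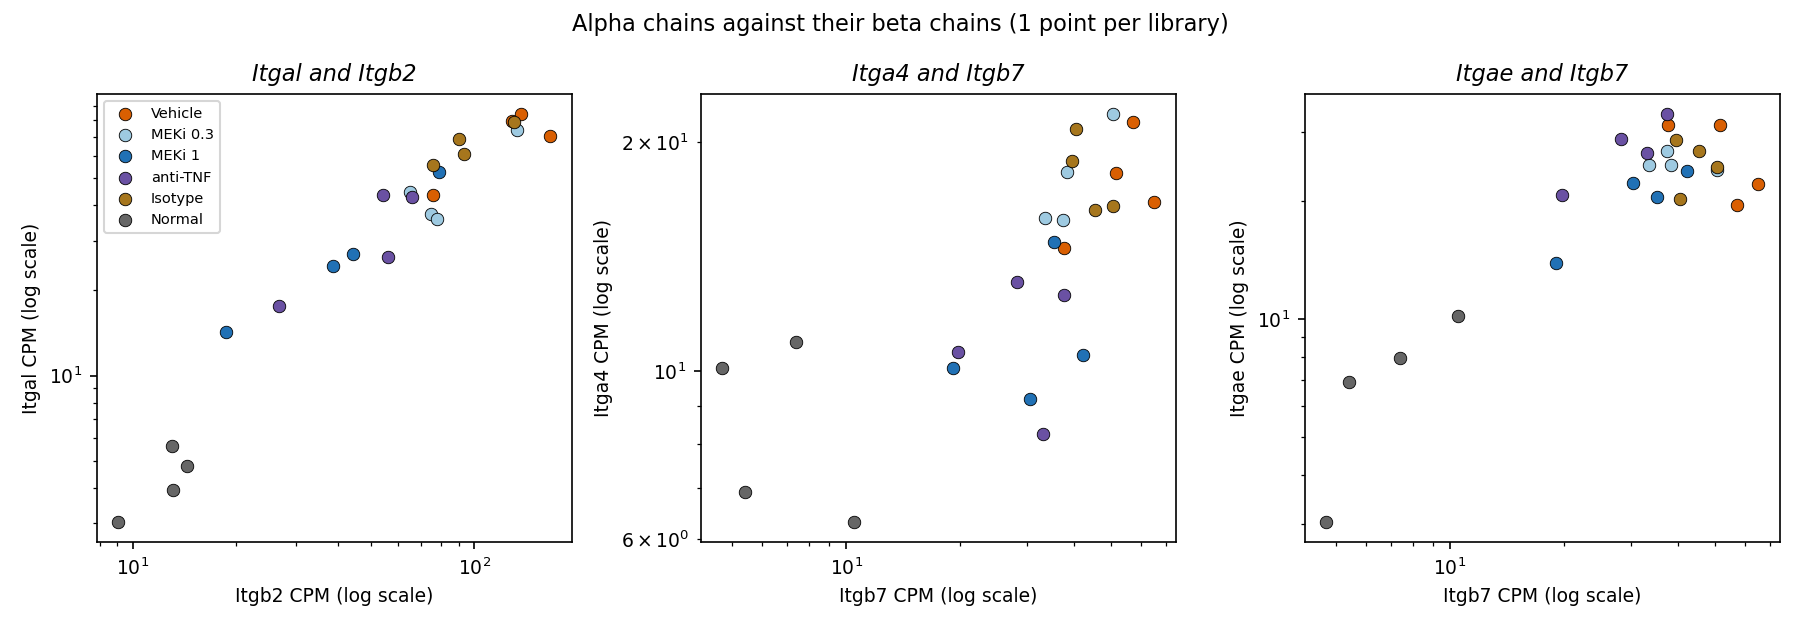
CPM of paired integrin chains, 1 point per library, on log axes, with groups by colour. Itgal and Itgb2 lie along a line over the whole range, from about the Normal level to Vehicle, while the Itgae and Itgb7 panel shows the anti-TNF libraries (ratio 0.801 to 1.05) apart from Isotype (0.483 to 0.725).

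Within groups the members varied together to different degrees. On log2 CPM with each group's mean removed, over the 24 libraries, whose genes share each library's depth and cell makeup, Pearson's r was 0.9 for Itgal with Itgb2, 0.843 for Itgb7 with Itgb2, 0.723 for Itgb2 with Madcam1 and 0.704 for Itgb2 with Selp. It was 0.544 for Itgb7 with Itgae and 0.542 for Madcam1 with Selp. Itga4 with its partner Itgb7 gave 0.0775, and Itga4 with Itgae -0.295. Itgae with Madcam1 gave -0.0444. The chains of α4β7 thus showed almost no shared variation within groups, unlike those of LFA-1.

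Over 11869 genes, the genes whose pattern was most like each member by the same measure were Trpm2 (r = 0.937) for Itgal, Sirpa (0.954) for Itgb2 and Il2rg (0.9), the common cytokine receptor chain, for Itgb7. Runx3, a transcription factor of lymphocytes, was also among the 3 closest to Itgb7, at 0.868. The closest gene was Srgap2 (0.874) for Madcam1, Procr (0.878), the endothelial protein C receptor, for Selp and Fgd2 (0.845) for Itgae. Itgam was second for Selp at 0.849. Itga4 had the weakest best match, Mndal at 0.722.

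Other genes of the homing pathway were read in 7 lists, beside a share of 23.1% of all genes called higher and 23.3% called lower in Vehicle against Normal. In Vehicle against Normal the adhesion ligands had 5 called higher and 7 lower of 17 (median log2 fold change -0.29). Those named by rule were Icam1, Selplg and Vcam1. Icam1, a ligand of LFA-1, was at 106 ± 22.2 CPM in Vehicle (3.01 ± 0.31, edgeR adjusted p = 2.16e-07). Selplg encodes the P-selectin ligand PSGL-1 (2.94), and Vcam1 another ligand of α4 integrins (1.88). Of 15 integrin activation genes 9 were called higher and 1 lower (median 0.76), among them Skap1 (3.57), Fermt3, or kindlin-3 (1.98), and Apbb1ip, or RIAM (1.51). Of 15 homing chemokines and receptors 9 were called higher and 1 lower (median 0.64), with Cxcr3 at 5.96 and Ccr2 at 2.75. Of 11 addressin regulators 8 were called higher and 1 lower (median 0.84), with Tnf at 4.67, Ltb, which encodes lymphotoxin β, at 2.83 and Tgfb1 at 1.73.

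The remaining lists held other integrin chains, selectin ligand glycosylation and retinoic acid genes. Of 18 other integrin chains 5 were called higher and 3 lower in Vehicle (median 0.10), with Itgax at 2.59 (edgeR adjusted p = 5.65e-06), Itgb6 of epithelium at 0.99 and Itga8 of smooth muscle and fibroblasts at -2.46. Of 10 genes for selectin ligand glycosylation 2 were called higher and 4 lower (median 0.02). Of 11 retinoic acid genes, which in T cells and dendritic cells bear on α4β7 and CCR9 imprinting, 1 was called higher and 4 lower (median -0.31), with Aldh1a1 at -2.36. The median over all genes tested was 0.

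The same lists were read in MEKi 1 against Vehicle, where 6.08% of all genes were called higher and 4.51% lower. Of the adhesion ligands 0 were called higher and 4 lower, including Cd44 (log2 fold change -1.05), Selplg (-1.15) and Icam1 (-1.02, edgeR adjusted p = 0.028), and the median was -0.13. Integrin activation had 0 called higher and 4 lower (median -0.38), with Rap1b at -0.72, Skap1 at -1.34 and Apbb1ip at -0.72. Homing chemokines and receptors had 2 called higher and 4 lower (median -0.65), with Cxcl13 at -1.55 and Ccr2 at -1.35. Other integrin chains had 1 called higher and 2 lower (median -0.21), with Itga5 at -0.82, Itgam at -1.32 and Itga8 at 1.55. Selectin ligand glycosylation had 1 called higher, Fut4 at 1.20, and 1 lower, Gcnt4 at -1.08. Addressin regulators had 0 called higher and 2 lower, Tgfb1 (-0.85) and Ltb (-0.87), and the retinoic acid list 0 called higher and 1 lower, Rdh11 (-0.65). In anti-TNF against Isotype and in MEKi 0.3 against Vehicle no gene of the 7 lists was called by edgeR.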

How the data were processed

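Poly(A) RNA from 24 colon samples was cut with RNase III and made into Ion Torrent libraries, per the labels' protocols. The files deposited by the authors give raw counts per gene symbol, and the submitters' processing notes name mm10. No source used here gives the aligner, the counting tool or the handling of strand. Counts were used as deposited, by each file's own sample, and 27509 symbols had at least 1 count.

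The test was edgeR's quasi-likelihood F test (version 4.0.16, R 4.3.3), robust, on TMM factors and 1 fit over all 24 libraries, after filterByExpr, with Benjamini-Hochberg adjustment over 14773 genes in each of 11 comparisons and a threshold of 0.05. The filter asked for 2.05 CPM, or 10 counts in the median library, in at least 4 libraries. The common dispersion was 0.0539 and the median prior df 6.53. The SE of a log2 fold change is its absolute value divided by the square root of F. Levels are CPM on TMM-scaled totals with n = 4. Group counts of low genes have 95% exact Poisson or binomial intervals, which cover counting error only, and a floor of 3 counts. Likeness used a prior count of 2 and genes averaging 5 CPM or more. Promoter sequences are from RefSeq and gene positions from GENCODE M21.

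Alternatives were DESeq2 1.42.0, limma 3.58.1 (voom with sample weights), other scalings and filters, smaller fits, a transcript length offset, the replicate number as a block, the table's column names, and fits without each library or without the libraries rich in pancreas transcripts. On simulated data, changes of 1 and of 2 on the log2 scale were checked. Replicate numbers were taken to pair samples only for MEKi 0.3 and Vehicle, where deviations of same-numbered samples correlated at 0.126, 0.125, 0.167 and 0.184, all over 0.1. No replicates were duplicates (chi-square per gene 5.38 to 59.9). The members and the gene lists were chosen with earlier results of these data known. Genes of the lists named in the text are up to 3 with the smallest p per list and comparison, and of the genes most like a member the 3 with the highest correlation. The β2 partners and the neighbours of members were named besides. Figures were drawn with matplotlib 3.10.9. Some items measured in these files are not reported here.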

Additional observations from a re-analysis of the deposited data

Results flagged for a closer look

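In 53 groups of 4 libraries the gap of the highest or lowest library to its nearest neighbour, divided by the group's range, was compared with Dixon's critical value at the 95% level, and 4 libraries passed it. Chance alone flags about 1 group in 20. Madcam1 was 12.4 CPM in MEKi 1 replicate 2, with 6.24 to 7.11 CPM in the other libraries of its group. That library was also the highest of its group for Itgal, Itgb2, Itgb7, Itgae and Selp, but not for Itga4. Madcam1 was 3.05 CPM in Normal replicate 4, with 4.37 to 4.54 CPM in the others. Sele was 0.693 CPM, or 2 counts, in MEKi 1 replicate 4, with 0 in the others. Ccr9 was 3.30 CPM in Isotype replicate 3, with 1.29 to 1.54 CPM in the others.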

How the results depend on the processing

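Of the 7 tested members, the 7 called in Vehicle against Normal and in Isotype against Normal stayed at 6 to 9 under every alternative but 1 (8 and 9 without the filter, which adds Ccr9 and Sele). With groups by the table's column names, 0 were called in Vehicle against Normal. Without any 1 library, 0 to 6 members were called in MEKi 1 against Vehicle and 0 to 1 in anti-TNF against Isotype. In MEKi 1 against Vehicle the count of 6 became 3 without the filter, 3 with a replicate block and only the groups compared, and 1 without the libraries rich in pancreas transcripts. Those fits called 773, 1578 and 391 genes in all. In anti-TNF against Isotype the count of 0 became 2 with DESeq2, 2 with limma-voom and 3 with a replicate block and only the groups compared (Itgal, Itgb2 and Selp). Over all genes these fits called 85, 35 and 277. limma-voom called 5 members in MEKi 0.3 against Vehicle, 1 in Isotype against Vehicle and 1 in the difference of effects. Over all genes it called 3357, 2977 and 1407 in these comparisons. The replicate block left 0 members called in MEKi 0.3 against Vehicle. In the other comparisons the correlations of same-numbered samples were not all over 0.1, so pairing was not assumed. For anti-TNF and Isotype they were 0.216, 0.0862, 0.142 and 0.342, and the labels do not say what a replicate number marks. The cause of the changes in calls was not tested.

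Signs turned only for log2 fold changes that did not pass. Itga4 in MEKi 0.3 against Vehicle was 0.02 and became -0.0042 with unscaled totals, -0.08 with limma-voom, -0.15 with the length offset and -0.09 to 0.12 without any 1 library, and Itgae there -0.17 to 0.05. Itgae in anti-TNF against Isotype was -0.05 by the table's names. Selp in MEKi 1 against Normal was -0.38 to 0.0043 without any 1 library. In Isotype against Vehicle, Itga4 was -0.22 with the length offset, and without any 1 library Itga4 was -0.05 to 0.15, Itgae -0.16 to 0.06, Itgal -0.25 to 0.041 and Selp -0.57 to 0.25. In the difference of effects Itga4 was -0.11 with the length offset and Selp 0.024 with the replicate block, and without any 1 library Itga4 was -0.14 to 0.14, Itgb7 -0.32 to 0.017, Itgal -0.63 to 0.024 and Selp -0.51 to 0.3.

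Over all genes, MEKi 1 against Vehicle had 1565 calls, with 43 to 2369 without any 1 library and 391 to 4808 under the other alternatives. MEKi 0.3 against Vehicle had 1 call, with 0 to 1130 and 0 to 3357, and anti-TNF against Isotype had 3, with 0 to 277 over all alternatives. No other scaling moved the median of all genes by over 0.1. Sele and Ccr9 are limited by depth, at 0 to 23 and 5 to 58 counts per group.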
